A study of Rattus norvegicus with 10 samples.

Results

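Islet RNA of diabetes-prone JBlyp/lyp rats was compared with islet RNA of DR+/+ rats, 2 arrays against 2, out of 10 arrays in the series. The members were every probe set of the array except the 57 manufacturer's controls, 31042 of 31099, each set as the mean of the JBlyp/lyp arrays minus the mean of the DR+/+ arrays. One probe set per gene, the brightest over the 10 arrays, gave 14217 named genes, and values below are for genes unless probe sets are named. No probe set was left out for its measured value, but brightness chose the probe set of each gene. Members and lists were chosen with earlier results of these data known.

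Both groups are BB rats aged 40 days. DR+/+ animals are labelled diabetes inducible and carry no lyp mutation. JBlyp/lyp animals are labelled diabetes prone and are homozygous for lyp. Both groups come from DRlyp/+ by DRlyp/+ crosses in the growth protocol, but the text on treatment, which describes fasted males, has DRlyp/lyp where the titles have JBlyp/lyp. How JB relates to DR is therefore not settled by the labels. The comparison therefore cannot tell the genotype at lyp apart from any other difference between DR and JB animals. Islets were isolated by collagenase digestion and a density gradient. The labels call the arrays biological replicates without saying whether islets were pooled or came from single animals, so p-values measure only the spread between these samples. The other groups were JB, labelled diabetes inducible, and the F344 and F344lyp healthy controls, all 40 days old, 2 arrays each.

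As background, the BB rat develops autoimmune destruction of its beta cells, the insulin-secreting cells of the islet. The lyp mutation is a frameshift in Gimap5, a GTPase that lymphocytes need to survive, and homozygous rats have few peripheral T cells. Insulin is made as a precursor, folded in the endoplasmic reticulum, cut by convertases in dense-core granules and released when glucose closes potassium channels. Isolated islets also hold glucagon, somatostatin and pancreatic polypeptide cells, capillaries and fibroblasts, and they carry along acinar, duct and mesothelial cells of the pancreas.

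The DR+/+ arrays stood apart from the rest of the series. Over the probe sets tested, their Pearson correlation with the other arrays was 0.914 to 0.943, while the other arrays correlated with each other at 0.954 to 0.997 and the DR+/+ arrays with each other at 0.991. Spiked bacterial RNA, added in a set amount, averaged 9.49 and 9.37 on the log2 scale on the DR+/+ arrays, 7.44 and 7.46 on the JBlyp/lyp arrays and 6.53 to 8.55 over all arrays other than DR+/+. The 3′ control probe set of Gapdh read 8.85 on both DR+/+ arrays and 10.80 and 9.89 on the JBlyp/lyp arrays. The 3′ minus 5′ difference of that control, a measure of RNA integrity, was 3.18 and 3.39 in DR+/+, 2.75 and 2.97 in JBlyp/lyp and 3.71 and 3.31 in JB. The same difference for beta-actin ran the other way, at 2.57 and 2.86 in DR+/+, 3.43 and 3.30 in JBlyp/lyp and 4.17 and 3.40 in JB. Array medians were 5.39 to 5.44. With the Gapdh 3′ minus 5′ difference as a covariate, 4242 of the 31042 probe sets were called in place of 9949. Counts with this covariate are given below for some lists only, and not for the beta cell, endoplasmic reticulum, mesothelial or endothelial lists. Hybridization controls averaged 10.57 and 10.48 on the DR+/+ arrays and 8.49 to 10.34 on all others. The beta-actin 3′ control read 8.65 and 8.87 in DR+/+ and 9.72 to 10.84 elsewhere, and its 5′ control 6.08 and 6.01 against 6.41 to 7.97. Both DR+/+ arrays lay beyond all others on these controls, the spiked RNA and the Gapdh level. None of these can be told apart from the DR+/+ group.

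Islet identity was present in both groups. Ins1, insulin of the rat's retrotransposed gene copy, was the brightest gene over all arrays, and Ins2, the ancestral insulin gene, ranked 3. Acinar transcripts were present beside them. Ctrb1, the pancreatic protease precursor chymotrypsinogen B, read 10.34 and 10.08 on the DR+/+ arrays and 13.14 and 12.38 on the JBlyp/lyp arrays.

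Compared with DR+/+, most genes of the islet endocrine lists were higher in JBlyp/lyp. Most genes of the mesothelial, endothelial and fibroblast lists were lower. Across genes, 5523 of 14217 passed limma's moderated test with Benjamini-Hochberg adjustment over all 31042 probe sets at an adjusted p under 0.05, which is 38.8%. Of these, 3133 genes were higher in JBlyp/lyp (22.0%) and 2390 were lower (16.8%), and 2697 also differed at least 2-fold (19.0%). Among probe sets 9949 were called, 32.1%. The median difference over all genes was 0.05 on the log2 scale. The groups' arrays did not overlap for 9685 genes (68.1%). In 4670 of the 5523 called genes (84.6%) both DR+/+ arrays lay beyond all 8 other arrays, and in 571 (10.3%) both JBlyp/lyp arrays did. Every call below used this test, every ± is a standard error of the fit, and members are to be read against these shares. Members named by size within a list were its largest called differences, so a lack of overlap between their arrays is no separate support. With 2 against 2, an exact two-sided permutation test of a single gene cannot go below p = 0.333.

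**Figure D1:**
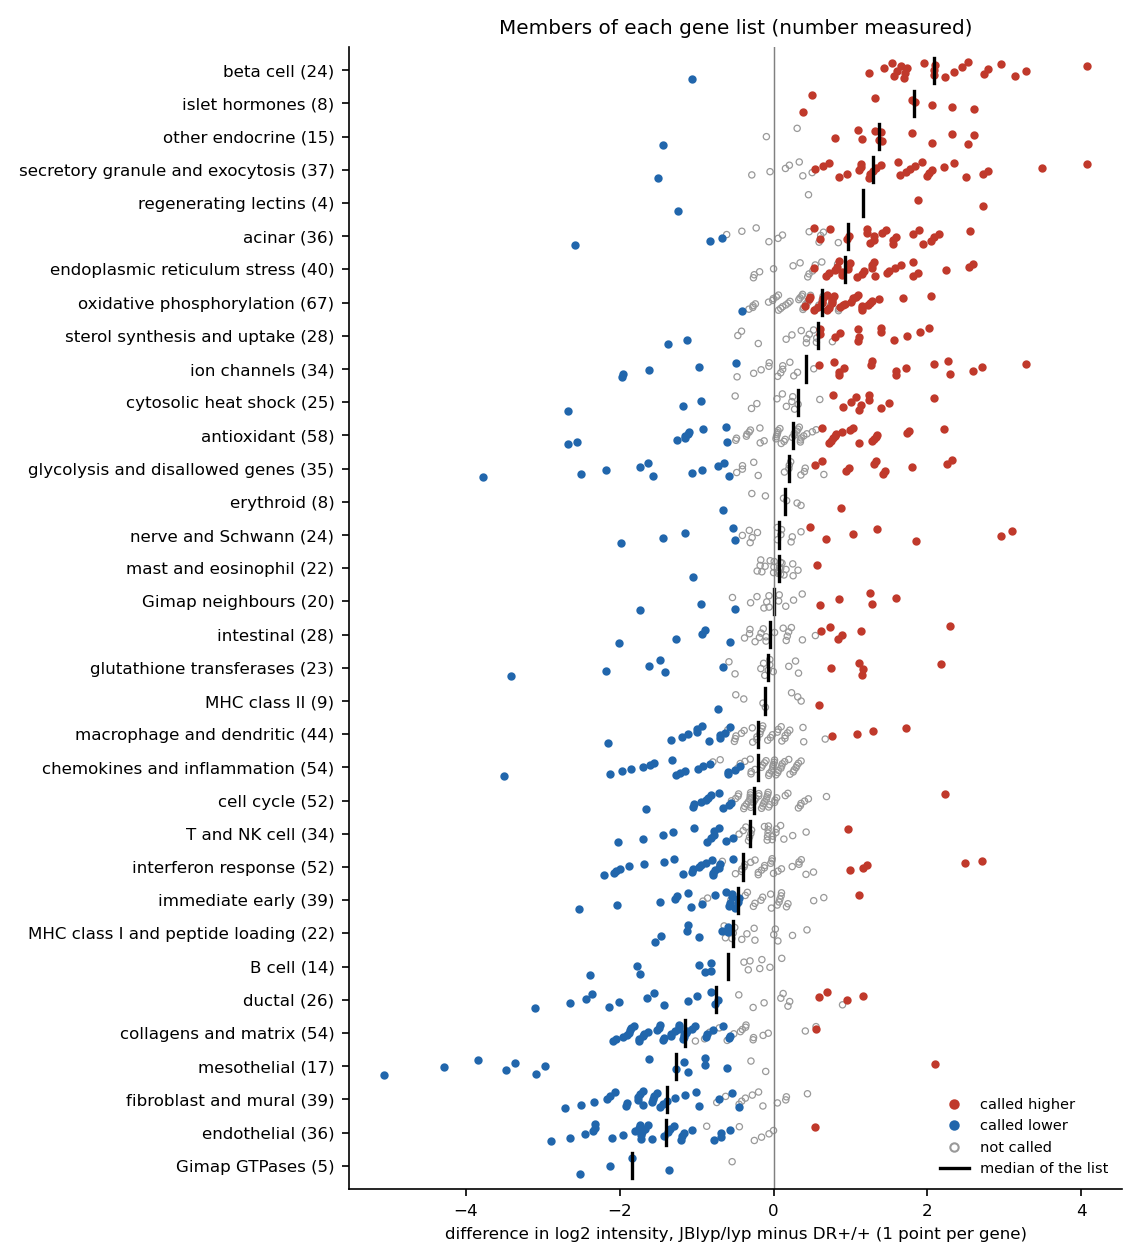
Difference in log2 intensity between JBlyp/lyp and DR+/+ for each measured member of 34 gene lists, 1 point per gene, with filled points for called genes and a black bar at the list's median. Lists of endocrine genes sit to the right with medians up to 2.09, and lists of stromal, endothelial and Gimap genes to the left with medians down to -1.84.

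Of the 15 largest rises, Prlr was on the beta cell list and Pcsk1n and Pcsk2 on the granule list, and the other 12 were on none. Slc6a17, a vesicular amino acid transporter, read 5.88 and 7.00 in DR+/+ and 10.77 and 10.25 in JBlyp/lyp, a difference of 4.07 ± 0.34 (adjusted p = 1.86e-05). Prlr, the prolactin receptor through which beta cells respond to lactogens, read 5.87 and 6.96 in DR+/+ and 10.74 and 10.24 in JBlyp/lyp, a difference of 4.07 ± 0.32 (adjusted p = 1.35e-05). Pcsk1n, the inhibitor of proprotein convertase 1, read 6.89 and 6.83 against 11.66 and 10.21 and was 16.8-fold higher. Only genes whose groups do not overlap could enter these 15. Plppr4, a brain phospholipid phosphatase-related protein, read 5.44 and 5.46 against 9.47 and 9.38, and its standard error of 0.13 was the smallest of the 15. Only 1 of the 4 other probe sets of Slc6a17 was called higher too, with a difference of 1.40, and 1 of the 2 others of Prlr. Another probe set of Slc6a17 was called lower, with a difference of -0.44 (adjusted p = 0.0328), and the remaining ones differed by 0.03 and 0.13. Trh, the precursor of thyrotropin-releasing hormone, read 6.52 and 6.55 against 10.65 and 10.15. C2cd4b, Disp2, Slc35g2, Slc38a5, Resp18, Podxl2, Entpd3, Pcsk2, Suox and Slc7a5 made up the rest, with differences of 3.30 to 3.84. Slc38a5 and Slc7a5 import amino acids, and Resp18 is a protein of endocrine secretory cells.

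Of the 15 largest falls, chosen the same way, Upk1b, Bnc1 and Wt1 were on the mesothelial list, Ptgs2 on the inflammation list, Slc16a1 on the list of glycolysis and silenced genes, and the other 10 on none. Upk1b, a uroplakin of the mesothelium and urothelium, read 10.70 and 10.92 in DR+/+ and 5.81 and 5.70 in JBlyp/lyp, a fall of 33.3-fold (difference -5.06 ± 0.16, adjusted p = 1.08e-06). Slc26a3, an anion exchanger of duct and gut epithelium, read 8.10 and 8.05 against 3.38 and 3.89 (difference -4.44 ± 0.17, adjusted p = 2.32e-06). The JBlyp/lyp values of Slc26a3 lay close to the lowest of the array, whose lowest value was 2.16. Slc16a1, the lactate transporter that healthy beta cells keep silent, read 9.15 and 9.31 against 5.00 and 5.90, while its other probe set differed by 0.12. Olr1, a scavenger receptor for oxidised lipoprotein, read 6.81 and 6.44 against 3.02 and 3.10. The others were Bnc1, Wfdc21, Scel, Wt1, Cldn8, Slc39a8, Pof1b, Sbspon, Ephb3, Ptgs2 and Gbp7, with differences from -4.28 to -3.49.

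Hormone transcripts were higher in JBlyp/lyp for 8 of 8 genes measured, with a median difference of 1.82. Sst, somatostatin, read 10.53 and 10.51 in DR+/+ and 13.30 and 12.95 in JBlyp/lyp, a difference of 2.60 ± 0.18 (adjusted p = 7.96e-06). Gcg, glucagon, read 11.19 and 11.27 against 13.74 and 13.37 (difference 2.32 ± 0.17, adjusted p = 1.08e-05). Ppy, pancreatic polypeptide, read 10.26 and 10.48 against 12.95 and 11.92 (difference 2.06 ± 0.30, adjusted p = 0.000589). All arrays of the JBlyp/lyp group lay above those of DR+/+ for these 3 hormones. Iapp, the amyloid peptide secreted with insulin, read 10.72 and 10.54 against 12.91 and 12.03 and was 3.57-fold higher. Pyy and Ghrl, peptide YY and ghrelin, differed by 1.80 and 1.32.

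Insulin itself differed least among the hormones. Ins1 read 13.87 and 13.86 in DR+/+ and 14.26 and 14.23 in JBlyp/lyp, a difference of 0.38 ± 0.12 (adjusted p = 0.034). Ins2 read 13.42 and 13.42 against 13.98 and 13.87, a difference of 0.51 ± 0.13 (adjusted p = 0.0131). The groups did not overlap for either gene. Both lay near the brightest value of any tested probe set, 14.37, and whether their signal was limited there was not tested. The call of Ins1 was lost without each of the 4 arrays in turn (adjusted p 0.0858 to 0.113), and that of Ins2 without DR+/+ replicate 1 (0.0543), DR+/+ replicate 2 (0.0557) or JBlyp/lyp replicate 1 (0.0662). In a fit of only these 4 arrays the adjusted p was 0.13 for Ins1 and 0.0668 for Ins2. With quantile normalization Ins2 differed by 0.27 (adjusted p = 0.123).

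The regions before the start of both insulin genes are shown because they are the textbook beta cell promoters, bound at E boxes by Neurod1, whose own transcript differed by 1.96. They are the 250 bases upstream of the RefSeq start, build GRCr8, at chr1:261185869-261186118 on the plus strand and chr1:207273806-207274055 on the minus strand. Capitals mark GCCATCTG, searched on both strands and matched 2 times in Ins1 and 1 time in Ins2.
Ins1: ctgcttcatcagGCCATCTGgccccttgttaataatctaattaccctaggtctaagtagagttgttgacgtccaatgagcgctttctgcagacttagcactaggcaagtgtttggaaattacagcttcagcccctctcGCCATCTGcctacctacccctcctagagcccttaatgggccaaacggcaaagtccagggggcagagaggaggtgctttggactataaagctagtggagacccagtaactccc
Ins2: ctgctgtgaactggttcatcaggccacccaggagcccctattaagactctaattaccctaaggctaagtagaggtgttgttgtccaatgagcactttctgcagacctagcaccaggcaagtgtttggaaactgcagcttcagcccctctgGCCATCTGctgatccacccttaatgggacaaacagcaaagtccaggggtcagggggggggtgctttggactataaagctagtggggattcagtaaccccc
The motif was held by 334 of 33469 RefSeq promoters of the same length (0.998%), by 2 of 8 hormone genes and by 0 of the 18 beta cell genes with a promoter in the table. Those 2 hormone genes were Ins1 and Ins2, and the motif was chosen as their E box, so that share is no result of these data. The matches overlapped neither endoplasmic reticulum motif described further on.

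Beta cell genes were higher in JBlyp/lyp in 23 of 24 measured, with a median of 2.09, and 1 was lower. Abcc8, the sulphonylurea receptor of the potassium channel that couples glucose to secretion, read 5.50 and 5.73 in DR+/+ and 9.33 and 8.45 in JBlyp/lyp, a difference of 3.27 ± 0.29 (adjusted p = 3.01e-05). Slc2a2, the glucose transporter Glut2, read 9.69 and 9.56 against 12.61 and 12.90 (difference 3.13 ± 0.20, adjusted p = 5.84e-06). Nkx2-2, a transcription factor of endocrine cells, read 6.79 and 6.56 against 9.38 and 9.90 (difference 2.96 ± 0.20, adjusted p = 7.96e-06). The groups stayed apart in all of them. Pdx1, the master factor of pancreas and beta cell, read 7.05 and 6.80 against 8.73 and 8.20 (difference 1.54 ± 0.22, adjusted p = 0.000442). Mafa, the factor of mature beta cells, read 10.47 and 9.99 against 11.41 and 12.47. Pdx1 and Mafa were singled out after their values were seen. Ttr, transthyretin, was the exception, at 6.60 and 6.71 against 5.65 and 5.54. The list's summed linear intensity, in units of 1000, was 12.0 and 11.7 in DR+/+ and 48.8 and 53.7 in JBlyp/lyp. In bulk RNA, fewer cells of a type and less RNA per cell cannot be told apart.

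**Figure D2:**
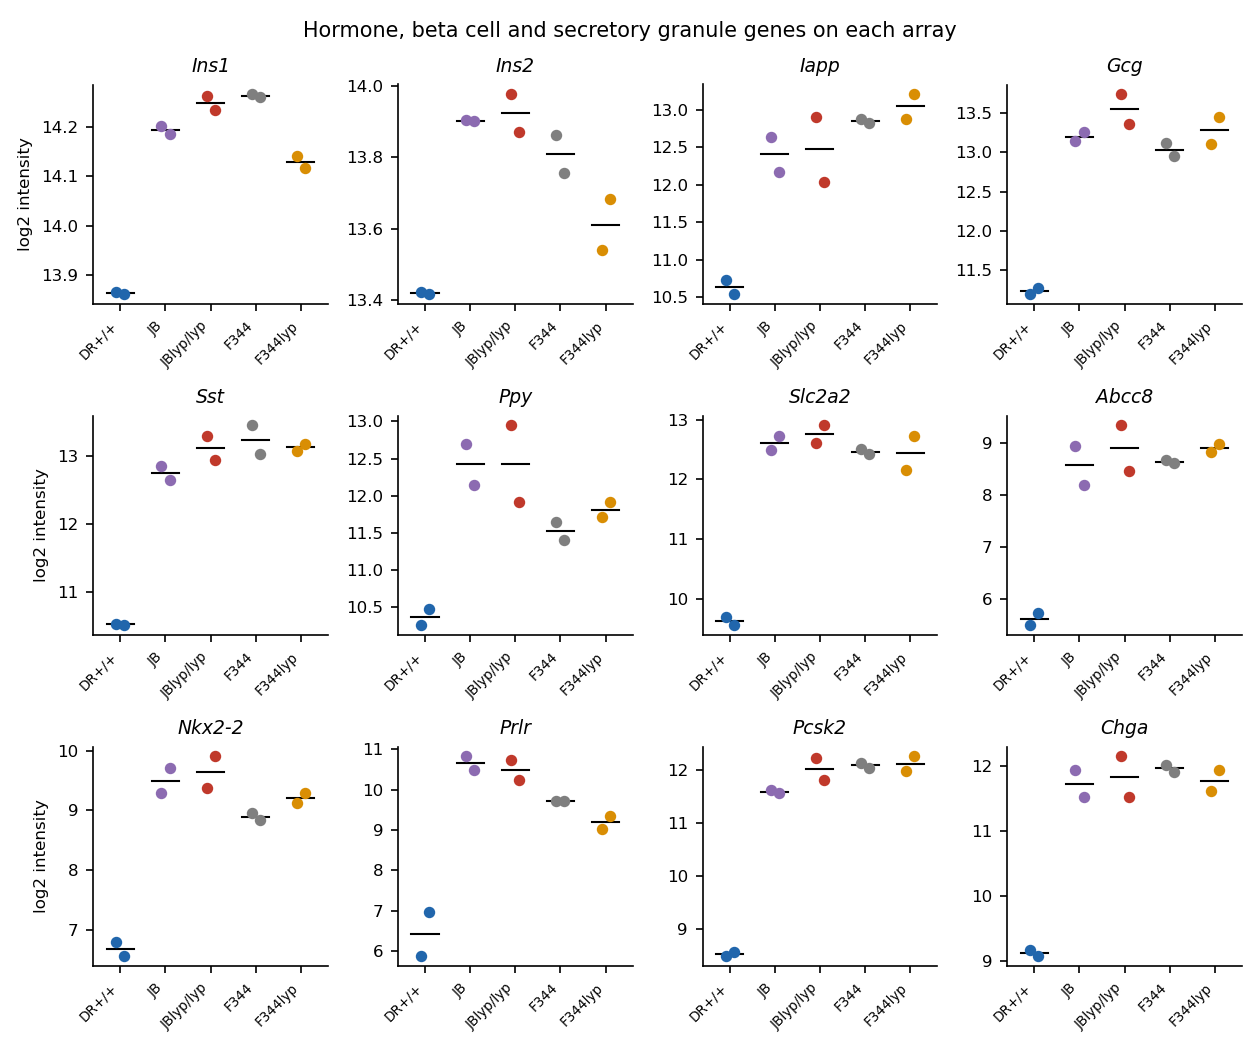
Log2 intensity (y axis, a separate range in each panel) of 12 hormone, beta cell and granule genes in the 5 groups, 2 points per group for the arrays and a bar at their mean. DR+/+ is the lowest group in every panel, and JBlyp/lyp lies nearer to JB than to DR+/+. The F344 groups lie further from JBlyp/lyp in some panels, such as Prlr and, for F344lyp, Ins2.

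Other endocrine markers were higher in 12 of 15 and lower in 1, with a median of 1.37. Gc, the vitamin D binding protein made by alpha cells, read 9.81 and 9.95 in DR+/+ and 12.68 and 12.15 in JBlyp/lyp. Secretory granule and exocytosis genes were higher in 29 of 37 and lower in 1, with a median of 1.29. Pcsk2, the convertase that makes glucagon and trims insulin, read 8.49 and 8.57 against 12.22 and 11.81, a difference of 3.48 ± 0.17 (adjusted p = 3.85e-06). Ptprn, the granule autoantigen IA-2, read 7.62 and 7.54 against 10.46 and 10.26, and Chga, chromogranin A, read 9.17 and 9.08 against 12.15 and 11.53. No array of JBlyp/lyp reached down to a DR+/+ array in these genes.

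Ion channel genes were mixed, with 16 of 34 higher and 5 lower and a median of 0.42. Kcnj5, a G protein-gated potassium channel, read 4.33 and 4.96 in DR+/+ and 7.43 and 7.29 in JBlyp/lyp, and its other probe set differed by -0.14. Scn9a, a voltage-gated sodium channel, read 4.89 and 4.91 against 7.53 and 7.46, and Cacna2d1, a calcium channel subunit, read 6.5 and 6.59 against 8.77 and 8.92. All 3 separated the groups. The 5 lower calls became 3 without DR+/+ replicate 2 and 3 without JBlyp/lyp replicate 2, and the median was 0.81 without JBlyp/lyp replicate 2. With the Gapdh 3′ minus 5′ difference as a covariate, higher calls were 5 of the hormones, 7 of the other endocrine genes, 19 of the granule genes and 10 of the channels, all fewer by over 1.5 times.

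Genes of the endoplasmic reticulum stress list were higher in 28 of 40 and lower in 0, with a median of 0.93. Quantile normalization gave 2 lower calls. Hyou1, a chaperone induced by hypoxia, read 6.19 and 6.64 in DR+/+ and 8.43 and 9.58 in JBlyp/lyp, a difference of 2.59 ± 0.32 (adjusted p = 0.000212). Its other probe set differed by 0.10. Manf, a secreted protein of stressed reticulum, read 7.78 and 7.64 against 10.28 and 10.23 (difference 2.54 ± 0.13, adjusted p = 3.85e-06). Asns, asparagine synthetase, read 8.15 and 8.22 against 10.63 and 10.22, and Dnajb9, a cochaperone of BiP, read 9.70 and 9.78 against 11.51 and 11.73. Every JBlyp/lyp value of these genes was above both DR+/+ values. Summed intensity of the list was 26.0 and 26.6 in DR+/+ and 57.7 and 59.7 in JBlyp/lyp.

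Promoters of 4 of these genes are shown because some members carry the element through which ATF6 and XBP1 act in the unfolded protein response. The element, CCAAT and CCACG separated by any 9 bases, was searched on both strands of the 250 bases before each start. It was held by 22 of 33469 promoters (0.0657%) and by 8 of the 32 measured list members with a promoter in the table. All 8 of these members were higher in JBlyp/lyp, by 0.52 to 1.65, as were 13 of the 24 without it, and none of either was lower. A second form, ATTGG and CCACG separated by any 1 base, was held by 14 promoters (0.0418%) and by 2 members, Herpud1 and Hyou1. The list was drawn up as genes of reticulum stress, so its share of the element is no result of these data. The genes printed were chosen after their values were seen.
Hspa5: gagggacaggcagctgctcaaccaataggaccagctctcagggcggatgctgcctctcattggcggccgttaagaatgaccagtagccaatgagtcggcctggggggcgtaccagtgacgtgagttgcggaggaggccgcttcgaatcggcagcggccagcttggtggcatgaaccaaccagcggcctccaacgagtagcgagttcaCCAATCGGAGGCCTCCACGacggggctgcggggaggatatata
Hsp90b1: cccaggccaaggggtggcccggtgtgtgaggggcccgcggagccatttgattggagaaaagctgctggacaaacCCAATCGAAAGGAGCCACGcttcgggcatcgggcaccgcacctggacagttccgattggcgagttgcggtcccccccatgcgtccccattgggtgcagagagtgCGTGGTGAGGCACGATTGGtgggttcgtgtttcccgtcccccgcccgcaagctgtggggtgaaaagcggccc
Ero1b: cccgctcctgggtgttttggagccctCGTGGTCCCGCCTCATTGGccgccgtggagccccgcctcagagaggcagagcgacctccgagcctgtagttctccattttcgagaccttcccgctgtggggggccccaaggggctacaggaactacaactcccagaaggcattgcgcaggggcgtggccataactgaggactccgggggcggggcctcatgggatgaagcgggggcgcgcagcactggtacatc
Herpud1: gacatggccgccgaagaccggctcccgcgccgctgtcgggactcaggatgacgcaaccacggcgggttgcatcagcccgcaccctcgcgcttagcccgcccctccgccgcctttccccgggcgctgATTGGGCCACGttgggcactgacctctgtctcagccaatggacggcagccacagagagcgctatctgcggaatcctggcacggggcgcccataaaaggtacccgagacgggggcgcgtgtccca
Capitals mark the element, read on either strand, in Hspa5 (chr3:38452766-38453015, plus strand), Hsp90b1 (chr7:23012294-23012543, minus strand) and Ero1b (chr17:92941432-92941681, plus strand), and the second form in Herpud1 (chr19:10614708-10614957, minus strand), all GRCr8 from RefSeq. The marked stretches overlapped no other motif searched. A match is a description of letters, not of binding. Hspa5, the chaperone BiP, read 11.30 and 11.41 in DR+/+ and 12.78 and 12.48 in JBlyp/lyp. Hsp90b1, the chaperone Grp94, read 9.99 and 9.84 against 11.05 and 11.94. Ero1b, the oxidase that forms disulphide bonds in proinsulin, read 11.22 and 11.09 against 12.41 and 13.21. Herpud1, a part of reticulum-associated degradation, read 9.39 and 9.33 against 10.42 and 10.23, and all 4 genes kept the groups apart.

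Energy metabolism genes leaned higher in JBlyp/lyp. Oxidative phosphorylation subunits were higher in 31 of 67 and lower in 1, a call lost without either DR+/+ array or JBlyp/lyp replicate 2, with a median of 0.63. Ndufa11, a complex I subunit, read 5.74 and 5.23 in DR+/+ and 8.0 and 7.07 in JBlyp/lyp (difference 2.05 ± 0.31, adjusted p = 0.000696). Atp5f1d, of ATP synthase, read 7.95 and 7.83 against 10.11 and 9.04, and Cox8a, of cytochrome c oxidase, read 9.74 and 9.67 against 11.15 and 10.99. The JBlyp/lyp arrays lay apart from each other in Ndufa11 and Atp5f1d, yet above both DR+/+ arrays. Ndufs8 read 6.61 and 6.72 against 8.59 and 7.31, and its call was lost without DR+/+ replicate 1, DR+/+ replicate 2 or JBlyp/lyp replicate 1 (adjusted p 0.0833 to 0.117). The 31 higher calls became 16 without DR+/+ replicate 1, 12 without DR+/+ replicate 2 and 14 without JBlyp/lyp replicate 1, and the median became 0.35 without JBlyp/lyp replicate 1. They were 15 in a fit of the 4 arrays alone, 16 with quantile normalization and 4 with the Gapdh covariate.

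Among glycolysis genes and genes that beta cells normally silence, 11 of 35 were higher and 11 lower, with a median of 0.20, which was 0.03 with quantile normalization and 0.13 without JBlyp/lyp replicate 1. Eno2, the neuroendocrine enolase, read 6.77 and 6.88 in DR+/+ and 9.16 and 9.12 in JBlyp/lyp, and Pfkfb2, a regulator of glycolytic flux, read 5.91 and 5.74 against 8.20 and 7.96. Other probe sets of Pfkfb2 differed by -0.11, 0.63 and 0.37 and were not called. Cxcl12, a chemokine of stromal cells on the silenced list, read 11.35 and 11.25 against 8.85 and 8.76. Sterol synthesis and uptake genes were higher in 13 of 28 and lower in 2 (4 without JBlyp/lyp replicate 2), with a median of 0.58. Acly, which makes cytosolic acetyl-CoA, read 10.18 and 10.21 against 12.22 and 12.21, with no overlap. Sc5d, Sqle and Tm7sf2, enzymes of the cholesterol pathway, differed by 1.90, 1.73 and 1.56. Under the Gapdh covariate 5 glycolysis and 7 sterol genes were higher.

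Cytosolic heat shock genes were higher in 11 of 25 and lower in 3, with a median of 0.32 that was 0.70 without JBlyp/lyp replicate 1 and 0.20 with quantile normalization. Hspa4l, an Hsp70 exchange factor, read 5.31 and 5.81 in DR+/+ and 7.79 and 7.49 in JBlyp/lyp. Hsp90ab1 differed by 1.5 and Dnajb1 by 1.40. Hspb8, a small heat shock protein of muscle and stroma, ran the other way, at 6.90 and 7.04 against 4.36 and 4.24 (difference -2.67 ± 0.15, adjusted p = 4.19e-06). Its other probe set differed by -0.24 and was not called. Immediate early genes, which tissue dissociation induces, were lower in 17 of 39 and higher in 1 (2 without either JBlyp/lyp array), with a median of -0.46. Nr4a3, a nuclear receptor of this class, read 9.24 and 9.13 against 6.20 and 7.11, and Egr2, a zinc finger factor, read 9.12 and 9.12 against 6.49 and 7.68. The other probe set of Egr2 differed by 0.01. Csrnp1 differed by -1.47 and Maff by -1.29. The 17 became 11 without DR+/+ replicate 1, 11 without DR+/+ replicate 2 and 10 in a fit of the 4 arrays. The Gapdh covariate left 6 heat shock genes higher and 8 immediate early genes lower.

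The series asked about the capacity of BB islets for oxidative stress, and antioxidant genes moved both ways. Of 58 measured, 17 were higher and 10 lower in JBlyp/lyp, a called share of 46.6% beside 38.8% of all genes, with a median of 0.26. Gpx2, a glutathione peroxidase of epithelia, read 8.43 and 8.50 in DR+/+ and 6.11 and 5.49 in JBlyp/lyp (difference -2.67 ± 0.36, adjusted p = 0.000348). Gpx8, a peroxidase of the endoplasmic reticulum, read 9.45 and 9.79 against 7.24 and 6.90 (difference -2.55 ± 0.17, adjusted p = 7.61e-06). Gpx3, the secreted form, went the opposite way, at 7.94 and 7.65 against 10.26 and 9.74 (difference 2.21 ± 0.20, adjusted p = 3.44e-05). Ucp2, a mitochondrial carrier expressed in beta cells, read 7.45 and 7.24 against 9.34 and 8.87. None of these 4 genes overlapped between groups. Others were singled out after their values were seen. Sod1, cytosolic superoxide dismutase, read 10.26 and 10.32 against 11.55 and 11.59. Nfe2l2, the transcription factor Nrf2, read 9.49 and 9.59 against 8.58 and 8.28, and Txnip, the thioredoxin inhibitor, read 11.94 and 11.98 against 10.44 and 10.98. Cat, Sod2 and Hmox1, coding for catalase, mitochondrial superoxide dismutase and heme oxygenase, were not called, with differences of 0.05, 0.05 and 0.30. The median was 0.11 with quantile normalization, 0.17 without DR+/+ replicate 1, 0.16 without JBlyp/lyp replicate 1 and 0.13 with probe sets of a gene averaged.

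Glutathione transferases were higher in 5 of 23 and lower in 6, with a median of -0.07 that was 0.01 without DR+/+ replicate 1. Gstt3, a theta-class enzyme, read 8.69 and 8.54 in DR+/+ and 5.56 and 4.87 in JBlyp/lyp, a fall of 10.6-fold (difference -3.41 ± 0.22, adjusted p = 5.84e-06). Mgst1, the microsomal enzyme, read 9.64 and 9.61 against 7.55 and 7.36. Gstz1, which also breaks down tyrosine, read 7.85 and 7.64 against 9.93 and 9.91. Gsta3 read 5.71 and 3.98 against 3.27 and 3.20, its DR+/+ arrays lying far apart. The fit with the Gapdh covariate called 9 antioxidant genes higher and 6 lower.

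Exocrine genes divided by cell type. Acinar genes were higher in JBlyp/lyp in 22 of 36 and lower in 3, with a median of 0.97 (0.63 with quantile normalization). Summed acinar intensity was 33.0 and 32.5 in DR+/+ and 87.3 and 55.3 in JBlyp/lyp. Ctrb1 differed by 2.56 ± 0.25 (adjusted p = 4.91e-05). Serpini2, a serpin of acinar cells, read 5.85 and 5.43 against 7.50 and 8.08, and Prss2, trypsinogen, read 8.05 and 7.96 against 10.41 and 9.78. Nr5a2, a nuclear receptor of acinar identity, was lower, at 8.52 and 8.57 against 5.71 and 6.23 (difference -2.57 ± 0.17, adjusted p = 6.72e-06), and 1 of its 2 other probe sets was called the same way. Ductal genes were lower in 14 of 26 and higher in 4, 2 without DR+/+ replicate 1, with a median of -0.74. Onecut1, a duct transcription factor, read 8.18 and 9.35 against 5.43 and 5.90, and all 4 probe sets of Onecut2 were called lower. Cftr, the duct chloride channel, read 8.70 and 8.80 against 6.38 and 6.39, and Slc4a4, the bicarbonate cotransporter, read 9.40 and 9.65 against 6.97 and 7.20, with its other probe set at a difference of -0.04. With the Gapdh covariate 10 acinar genes were higher, and 9 ductal genes were lower and 0 higher.

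The regenerating lectins, secreted by acinar cells in injury, were few and divergent. Reg3a read 4.50 and 4.42 in DR+/+ and 7.45 and 6.92 in JBlyp/lyp, a difference of 2.73 ± 0.22 (adjusted p = 1.73e-05). Reg1a read 7.64 and 7.41 against 10.08 and 8.71 (difference 1.87 ± 0.36, adjusted p = 0.00286), a call not made with the Gapdh covariate (difference 1.23, adjusted p = 0.169). Reg3g read 5.31 and 5.49 against 4.26 and 4.05 and was lower by 2.37-fold. Reg3b, the other of 4 measured, differed by 0.45 and was not called. The list's median of 1.16 became 0.76 without JBlyp/lyp replicate 1. Reg3a and Reg1a read 4.47 and 4.79, and 7.66 and 7.79, on the JB arrays, level with DR+/+.

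Mesothelial genes held the largest falls of any list. Of 17 measured, 14 were lower and 1 higher, with a median of -1.26. Bnc1, a zinc finger protein of mesothelium, read 7.95 and 7.53 in DR+/+ and 3.35 and 3.57 in JBlyp/lyp (difference -4.28 ± 0.22, adjusted p = 3.85e-06). Wt1, the defining transcription factor of mesothelium, read 8.12 and 7.91 against 3.81 and 4.56 (difference -3.83 ± 0.24, adjusted p = 5.84e-06), while its other probe set differed by 0.13. Lrrn4, a leucine-rich repeat protein of mesothelial cells, read 9.58 and 9.73 against 6.16 and 6.21, and all 3 of its probe sets were called lower. Msln, mesothelin, was the member that was higher, at 10.91 and 10.99 against 13.19 and 12.89, and it was named after its values were seen. The list's summed intensity was 10.4 and 11.0 in DR+/+ and 11.4 and 9.4 in JBlyp/lyp, so the sums overlapped although most members did not. Linear sums weigh bright members most, and Msln was both bright and higher in JBlyp/lyp. A sum without Msln was not calculated, so the overlap does not describe the other members.

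Capillary genes were lower in 29 of 36 and higher in 1, with a median of -1.40. Their summed intensity was 31.9 on both DR+/+ arrays and 11.2 and 12.2 in JBlyp/lyp. It was 12.3 and 14.5 in JB, 11.9 and 11.6 in F344 and 10.4 and 12.0 in F344lyp. Clec14a, an endothelial lectin, read 9.69 and 9.40 in DR+/+ and 6.67 and 6.64 in JBlyp/lyp (difference -2.89 ± 0.20, adjusted p = 8.61e-06). Sox17, an arterial transcription factor, read 9.71 and 9.90 against 7.14 and 7.18, and Podxl, podocalyxin of the luminal membrane, read 10.52 and 10.17 against 7.65 and 8.15. The other probe sets of Sox17 and Podxl, 2 each, were not called lower. Nostrin, which binds endothelial nitric oxide synthase, read 7.99 and 9.07 against 6.34 and 6.04. The single higher call was lost without DR+/+ replicate 1, DR+/+ replicate 2 or JBlyp/lyp replicate 2.

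Fibroblast and mural genes were lower in 27 of 39 and higher in 0, with a median of -1.39; with the replicate number as a block 1 was higher. Fmod, the collagen-binding proteoglycan fibromodulin, read 8.17 and 8.19 in DR+/+ and 5.72 and 5.21 in JBlyp/lyp (difference -2.71 ± 0.19, adjusted p = 9.22e-06). Cxcl12 differed by -2.50, Ddr2, a collagen receptor, by -2.33, and Cspg4, the pericyte proteoglycan NG2, by -2.17. Other probe sets differed by -0.13 and -1.47 for Cxcl12 and by -0.11 and -2.06 for Ddr2. Collagens and matrix genes were lower in 37 of 54 and higher in 1, with a median of -1.15. Col5a2, a fibrillar collagen chain, read 11.05 and 11.24 against 9.27 and 9.10, and Lox, which cross-links collagen, read 10.50 and 10.20 against 8.02 and 8.88. Postn, periostin, differed by -2.09 and Thbs4, a thrombospondin, by -2.05. Summed matrix intensity was 39.4 and 40.7 in DR+/+ and 19.2 and 17.9 in JBlyp/lyp. The higher matrix call was lost without DR+/+ replicate 1 or JBlyp/lyp replicate 1 and became 2 without JBlyp/lyp replicate 2. The Gapdh covariate left 17 fibroblast genes lower.

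**Figure D3:**
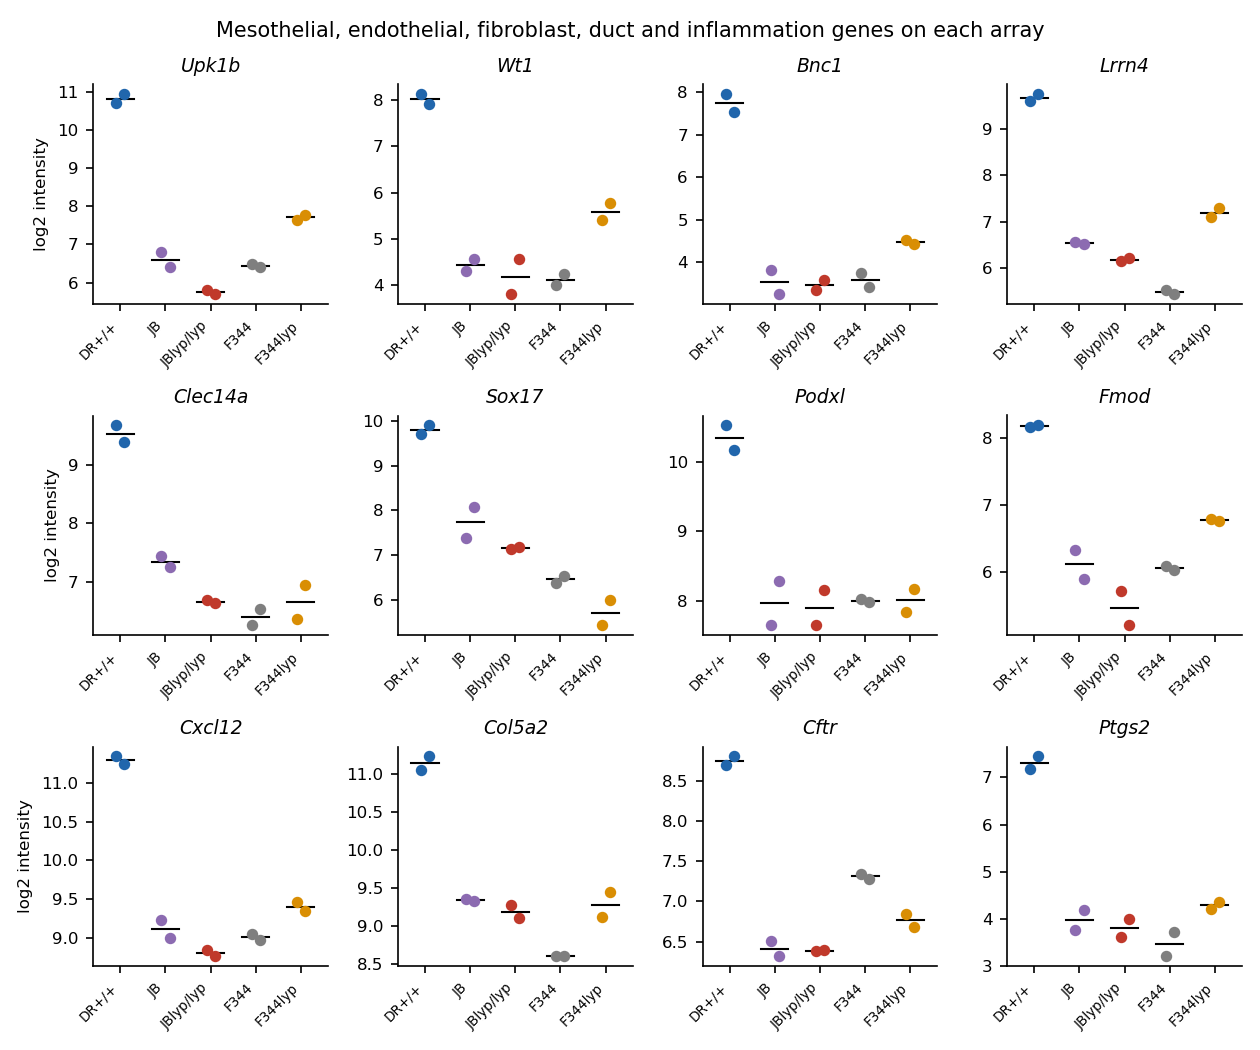
Log2 intensity (y axis, a separate range in each panel) of 12 mesothelial, endothelial, fibroblast, duct and inflammation genes in the 5 groups, 2 points per group and a bar at the mean. Both DR+/+ arrays are the highest in every panel, for Upk1b at 10.70 and 10.92 against 5.70 to 7.78 elsewhere.

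T and NK cell genes were lower in 12 of 34 and higher in 1, Gzmm, with a median of -0.30. The components of the T cell receptor complex Cd3g, Cd3d and Cd3e differed by -1.69, -1.44 and -1.31. Cd3d read 6.35 and 6.44 in DR+/+ and 4.92 and 4.99 in JBlyp/lyp (adjusted p = 2.57e-05). Cd3e read 5.83 and 6.48 against 4.49 and 5.20, and its other probe set differed by -0.04. Tcf7, a factor of naive T cells, read 6.47 and 7.10 against 4.81 and 4.71. The groups did not overlap for these genes. On the JB arrays, without the mutation per the labels, Cd3d lay between both groups, at 5.64 and 5.66. Summed T and NK intensity was 1.5 and 1.6 in DR+/+ and 1.0 on both JBlyp/lyp arrays. Gzmm, a granzyme of cytotoxic cells singled out after its values were seen, differed by 0.96 ± 0.22 (adjusted p = 0.00692), a call lost without DR+/+ replicate 2.

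B cell genes were lower in 7 of 14 and higher in 0, with a median of -0.60. Cr2, the complement receptor of B cells, read 7.69 and 7.65 in DR+/+ and 5.04 and 5.53 in JBlyp/lyp (difference -2.38 ± 0.24, adjusted p = 6.69e-05). Another probe set of Cr2 was called at -0.77, and the rest, at -0.19, -0.48 and -0.43, were not. Jchain, which joins secreted antibodies, differed by -1.77 (by -0.10 in its other probe set) and Pou2af1, a B cell coactivator, by -1.74. Bank1 differed by -0.97, a call lost without DR+/+ replicate 1, DR+/+ replicate 2 or JBlyp/lyp replicate 1 (adjusted p 0.0986 to 0.152). Macrophage and dendritic genes were lower in 12 of 44 and higher in 4, with a median of -0.20. Ptprc, the pan-leukocyte marker CD45, read 8.57 and 8.46 against 5.86 and 6.86 (difference -2.16 ± 0.36, adjusted p = 0.00122), and its other probe set differed by -0.07. Flt3, a receptor of dendritic cells, read 6.44 and 6.16 against 5.08 and 4.87. C1qa and C1qc, chains of a complement protein of tissue macrophages, were higher, by 1.73 and 1.29, and the call of C1qc was lost without DR+/+ replicate 1 (adjusted p = 0.0501). Mast and eosinophil genes were called in 2 of 22 with a median of 0.07, Gata2 lower by 2.06-fold and Mcpt1 higher by 1.47-fold, and Mcpt1 was lost without DR+/+ replicate 2 or either JBlyp/lyp array (adjusted p 0.0553 to 0.177). With the Gapdh covariate 4 T and NK genes, 3 B cell genes and 6 macrophage genes were lower, and the calls of Cd3g, Cd3e and C1qc were not made, at differences of -1.71, -0.96 and 1.16 (adjusted p = 0.0534, 0.198 and 0.172).

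Inflammation genes were lower in 18 of 54 and higher in 0, with a median of -0.20 that was -0.11 without JBlyp/lyp replicate 2; quantile normalization gave 1 higher. Ptgs2, inducible cyclooxygenase, read 7.17 and 7.45 in DR+/+ and 3.62 and 4.0 in JBlyp/lyp (difference -3.50 ± 0.22, adjusted p = 5.84e-06). Icam1, a leukocyte adhesion molecule, read 8.66 and 8.90 against 6.52 and 6.79. Il33, an alarmin of stromal cells, differed by -1.96 and Cxcl1, a neutrophil chemokine, by -1.86. Interferon response genes were lower in 21 of 52 and higher in 5, with a median of -0.40. Rtp4 and Ifi44, induced by type I interferon, differed by -2.20 and -2.08. The interferon-induced T cell attractants Cxcl10 and Cxcl11 went the other way. Cxcl10 read 5.01 and 4.96 against 7.79 and 7.59 (difference 2.70 ± 0.22, adjusted p = 1.64e-05), and Cxcl11 read 6.02 and 6.63 against 8.75 and 8.89. With the Gapdh covariate 12 interferon genes were lower.

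Class I antigen presentation genes were lower in 8 of 22 and higher in 0, with a median of -0.53. RT1-S3 read 9.21 and 9.09 in DR+/+ and 7.59 and 7.80 in JBlyp/lyp (difference -1.46 ± 0.14, adjusted p = 4.31e-05), and Tap2, of the peptide transporter, read 5.68 and 5.44 against 4.65 and 4.23. RT1-T24-4 differed by -1.54 and RT1-CE5 by -1.13. Class I genes are near-identical copies that differ between strains, so how far sequence differences under the probes enter these values was not tested. The 8 became 14 without JBlyp/lyp replicate 1, and without JBlyp/lyp replicate 2 the median was -0.26 and 1 gene was higher. Dim probe sets left out gave 5 lower, as did the Gapdh covariate. Averaging its probe sets ended the call of RT1-CE5 (difference -0.32). Class II genes were called in 2 of 9, RT1-Db1 at -0.72 and RT1-DMb at 0.59, with a median of -0.11 that was 0.07 without DR+/+ replicate 1 and 0.40 without JBlyp/lyp replicate 2. RT1-DMb was lost without DR+/+ replicate 2 (adjusted p = 0.12), and without JBlyp/lyp replicate 2 the class II calls were 3 higher and 2 lower.

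Gimap genes, the GTPase family that holds the lyp mutation, were lower in JBlyp/lyp for 4 of 5 measured, with a median of -1.84. Gimap5 read 8.22 and 8.41 in DR+/+ and 5.95 and 5.65 in JBlyp/lyp, a fall of 5.73-fold (difference -2.52 ± 0.29, adjusted p = 0.000137). On the JB arrays, without the mutation per the labels, Gimap5 read 7.05 and 5.95, so 1 of them equalled a JBlyp/lyp array to 2 decimals. F344 read 7.03 and 6.82 and F344lyp 5.96 and 6.02. Whether the Gimap5 probes lie beyond the frameshift was not examined here, and a frameshift need not change the transcript's level, so this is no check of the genotype. Gimap1 read 6.11 and 6.34 against 4.13 and 4.08, Gimap7 5.53 and 5.43 against 3.60 and 3.67, and Gimap6 8.67 and 8.95 against 7.31 and 7.59. These 3 and Gimap5 separated the groups and were lower in JB than in DR+/+ too, with differences of -1.92, -1.37, -1.34 and -1.81. Gimap4 read 5.77 and 5.76 against 5.46 and 5.00 and missed the threshold (difference -0.54 ± 0.19, adjusted p = 0.0506), which it passed without JBlyp/lyp replicate 1 (0.0147), with the replicate block (0.0318), with quantile normalization (0.0404) and with median centring (0.0455).

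Genes within 20 positions of the Gimap cluster in the RefSeq gene order showed no common direction, with 5 of 20 higher and 3 lower and a median of 0.00. Higher calls were 3 without DR+/+ replicate 2. Ccdc126 read 5.74 and 5.62 in DR+/+ and 7.30 and 7.24 in JBlyp/lyp, and Krba1 and Atp6v0e2 differed by 1.28 and 1.26. Rarres2, the chemokine chemerin, read 9.47 and 9.51 against 8.44 and 7.06, and its call was lost without DR+/+ replicate 2 (adjusted p = 0.0501).

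**Figure D4:**
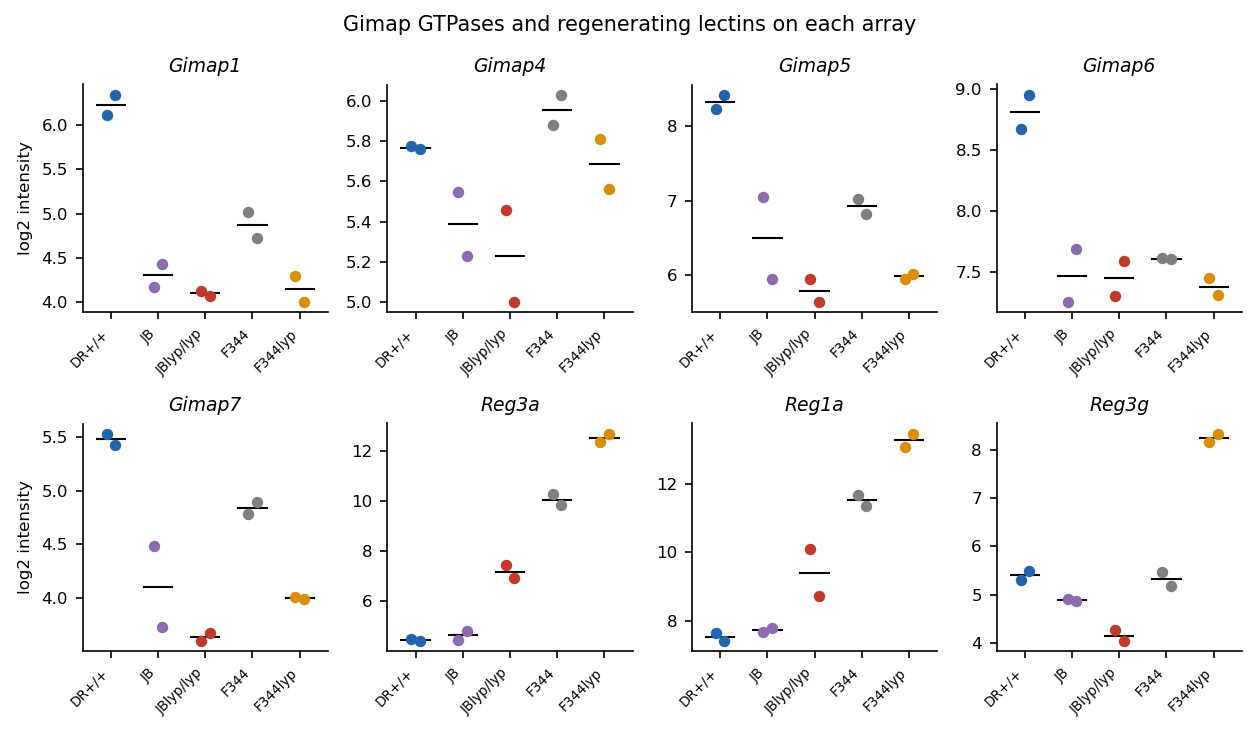
Log2 intensity (y axis, a separate range in each panel) of 5 Gimap genes and 3 regenerating lectins in the 5 groups, 2 points per group and a bar at the mean. Gimap5 is highest in DR+/+ at 8.22 and 8.41, and Reg3a is 4.42 to 4.79 in DR+/+ and JB and above 6.9 in the other groups.

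The remaining lists moved little or both ways. Nerve and Schwann genes were higher in 7 of 24 and lower in 5, 3 without DR+/+ replicate 2 or JBlyp/lyp replicate 1, with a median of 0.07 that was -0.01 without DR+/+ replicate 1. The higher members include genes that endocrine cells also express. Uchl1, a neuroendocrine hydrolase, read 5.69 and 5.41 in DR+/+ and 9.06 and 8.25 in JBlyp/lyp, and Elavl4 and Ret differed by 2.95 and 1.86. Gfra3, a receptor of glia and neurons, read 7.44 and 7.08 against 5.31 and 5.25. Intestinal genes were higher in 6 of 28 (3 without DR+/+ replicate 2) and lower in 5 (3 without DR+/+ replicate 1), with a median of -0.04 that was 0.62 with dim probe sets left out. Vil1, villin, differed by 2.29, Gucy2c by 1.14 and Dpp4 by -2.01. Cdh17 differed by -1.27, a call lost without DR+/+ replicate 1 or JBlyp/lyp replicate 1 (adjusted p 0.0925 to 0.149).

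Erythroid genes were called in 2 of 8, Hbb at 0.87 and Ahsp at -0.66, with a median of 0.15. Hbb was lost without DR+/+ replicate 2 or JBlyp/lyp replicate 1, and Ahsp without DR+/+ replicate 1 or JBlyp/lyp replicate 2 (adjusted p 0.085 to 0.108). Cell cycle genes were lower in 11 of 52, 7 without DR+/+ replicate 1, and higher in 1 (2 without DR+/+ replicate 2 or JBlyp/lyp replicate 2), with a median of -0.25. Kif23, a kinesin of cytokinesis, read 6.08 and 6.64 against 4.88 and 4.52, and the helicase subunits Mcm3 and Mcm5 each differed by -1.04. The other probe set of Kif23 differed by -0.39 and was not called. Ccnd2, a cyclin of beta cell proliferation, was the exception at 8.26 and 9.16 against 11.34 and 10.54 (difference 2.23 ± 0.30, adjusted p = 0.000354).

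Set beside it, JB minus DR+/+ gave 8793 called probe sets (28.3%) and JBlyp/lyp minus JB gave 1 (0.00322%) in limma's test, with 1935 (6.23%) at an unadjusted p under 0.05. These comparisons share arrays with JBlyp/lyp minus DR+/+, whose difference is their sum, so only their values are given. The 1 call was Reg3a, higher by 2.55 in JBlyp/lyp than in JB, and the calls were 0 without JB replicate 1, 0 without JB replicate 2, 0 with the Gapdh covariate and 4 without JBlyp/lyp replicate 2. For beta cell genes the median was 1.90 in JB minus DR+/+ and 0.13 in JBlyp/lyp minus JB. For endothelial genes these medians were -1.19 and -0.24, and for Gimap genes -1.37 and -0.20. Immediate early genes differed more in JBlyp/lyp minus JB, with a median of -0.39 against -0.05. Cd3g differed by -0.69 in JB minus DR+/+ and by -1.0 in JBlyp/lyp minus JB.

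F344lyp minus F344 shares no array with JBlyp/lyp minus DR+/+ and changes the lyp genotype on another background. It gave 468 called probe sets (1.51%), but 78 without F344 replicate 1, 58 without F344 replicate 2, 241 without F344lyp replicate 1, 76 without F344lyp replicate 2 and 123 with the Gapdh covariate. The shares that follow rest on the 468. Of these, 96 were higher in both comparisons, which is 1.76% of the 5457 higher in JBlyp/lyp (17.6% of all) and 27.5% of the 349 higher in F344lyp (1.12% of all). In both comparisons 46 were lower, 1.02% of 4492 (14.5% of all) and 38.7% of 119 (0.383% of all). Opposite calls numbered 31 higher in JBlyp/lyp and lower in F344lyp, 26.1% of the 119 (17.6% of all were higher in JBlyp/lyp). The other way there were 90, which is 25.8% of the 349 (14.5% of all were lower in JBlyp/lyp). Probe sets higher in F344lyp were thus called lower in JBlyp/lyp nearly as often as higher, at 25.8% and 27.5%. Reg3a was higher in both, by 2.73 and 2.49, and Cd3d lower in both, by differences of -1.44 and -1.32, and for neither did the difference between the comparisons pass the test (adjusted p = 0.664 and 0.726). Gimap5 differed by -0.93 in F344lyp minus F344 (adjusted p = 0.158), and its difference between the comparisons passed (adjusted p = 0.0231). Over all probe sets that difference passed for 6131 (19.8%), and for 3663 and 3687 without F344 replicate 1 and 2. Slc2a2 differed by -0.02 and Abcc8 by 0.26 in F344lyp minus F344, against 3.13 and 3.27 here (adjusted p of the difference 9.4e-05 and 0.000935).

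**Figure D5:**
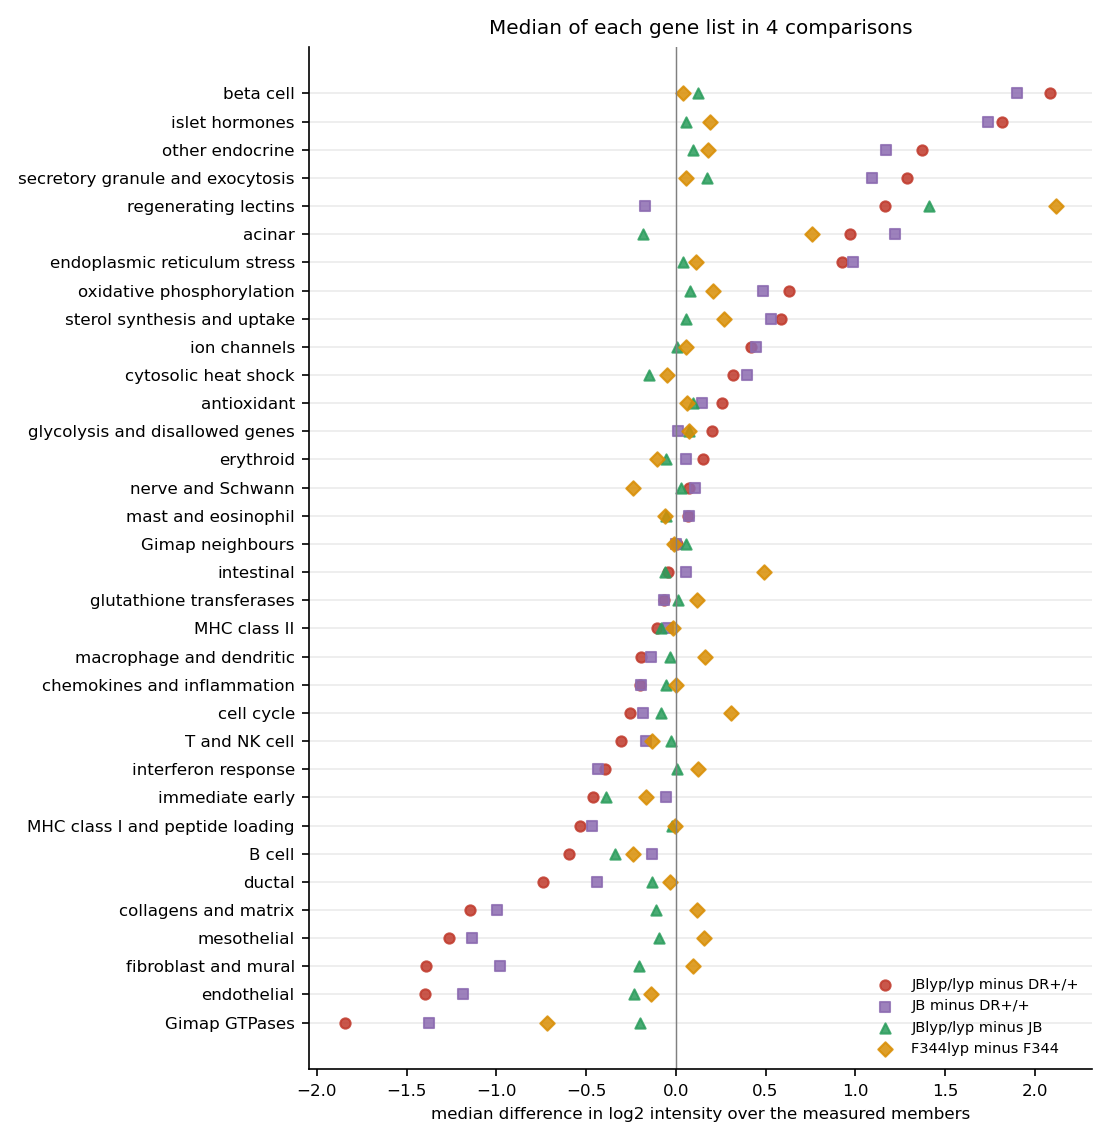
Median difference in log2 intensity of each of 34 gene lists in 4 comparisons, with lists ordered by JBlyp/lyp minus DR+/+. Circles and squares, which share the DR+/+ arrays, lie close together (2.09 and 1.90 for beta cell genes), triangles for JBlyp/lyp minus JB lie near 0 for most lists, with the regenerating lectins at 1.41 and immediate early genes at -0.39, and diamonds show F344lyp minus F344.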

How the data were processed

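Islet RNA from 5 groups of rats, 2 arrays each, was measured on Affymetrix rat expression arrays. The deposited values are log2 intensities per probe set, for which the submitters' processing notes list RMA and GCOS without a version. Scans were not analysed here, so probe-level steps stay as deposited. The number of arrays limits the precision.

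All 31042 probe sets outside the controls were fitted with limma 3.58.1 in R 4.3.3 (1 mean per group, all 10 arrays, eBayes, 5 residual and 4.72 prior degrees of freedom, two-sided, Benjamini-Hochberg, called at an adjusted p under 0.05). Probe sets with 1 symbol (20826; 436 had several and 9780 none) were named from the platform table, of which 20758 matched RefSeq (GRCr8); the brightest represents its gene, and in 123 genes the probe sets disagreed in the direction of their calls. Of 149 named genes, 40 had other probe sets, and in 22 another was called the same way. On simulated data with 200 changed probe sets the fit recovered 4% of log2 differences of 0.5, 72% of 1 and 100% of 2.

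Named were the 15 largest rises and 15 largest falls among called genes whose groups do not overlap, up to 4 called members of each of 34 lists by size, all Gimap genes and the main hormones; symbols starting with LOC or RGD were passed over. The members and lists were chosen with earlier results of these data known. The labels state no pairing by replicate number; deviations of same-numbered arrays correlated at -0.10 between JBlyp/lyp and DR+/+ and at up to 0.65 over the 10 pairs of groups. Alternatives were the 4 arrays alone, a replicate block, an intensity trend with a robust prior, dim probe sets left out, quantile normalization, median centring, the Gapdh 3′ minus 5′ difference as a covariate, a fold minimum, averaged probe sets and each array left out.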

Additional observations from a re-analysis of the deposited data

Results flagged for a closer look

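Each of 7 named genes was called in JBlyp/lyp minus DR+/+ and in F344lyp minus F344 with opposite signs, and the difference between both comparisons passed limma's test with Benjamini-Hochberg adjustment. With opposite signs that difference adds both effects, so its passing is no separate support. Over all 31042 probe sets, 31 were called higher in JBlyp/lyp and lower in F344lyp, and 90 the other way. The comparisons share no array, but only F344lyp minus F344 is labelled as a change of lyp on 1 background. Upk1b differed by -5.06 and 1.27, a difference between the comparisons of -6.33 (adjusted p = 2.62e-06). Wt1 differed by -3.83 and 1.47 (difference -5.30, adjusted p = 2.98e-05), and Lrrn4 by -3.47 and 1.71 (difference -5.19, adjusted p = 2.62e-06). These 3 are mesothelial markers. Slc39a8, a zinc and manganese importer, differed by -3.78 and 1.47 (difference -5.25, adjusted p = 2.65e-05). Reg3g, an antibacterial lectin, differed by -1.25 and 2.92 (difference -4.16, adjusted p = 2.65e-05). Cdh17, an intestinal cadherin, differed by -1.27 and 2.15 (difference -3.42, adjusted p = 0.00142), and its fall was not called without DR+/+ replicate 1 or JBlyp/lyp replicate 1. Slc4a4 differed by -2.43 and 0.93 (difference -3.36, adjusted p = 5.35e-05).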

How the results depend on the processing

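The 9949 calls of JBlyp/lyp minus DR+/+ stayed within 1.5 times in most alternatives, at 7001 with the 4 arrays alone, 10062 with trend and robust prior, 9955 with quantile normalization and 9984 with median centring; without 1 array they ranged from 7295 to 9492. With quantile normalization 5025 were higher and 4930 lower, an almost even split. With dim probe sets left out, 7412 were called, of which 2764 were lower. With the Gapdh 3′ minus 5′ covariate 4242 were called, 2220 higher and 2022 lower, and with a minimum of 2-fold 4710, 2600 higher and 2110 lower. The replicate numbers are shared across groups without a stated pairing; the replicate block gave 10837 calls, and the crossed replicate block, chosen after seeing the data, gave 11176. Same-numbered JBlyp/lyp and JB arrays correlated at 0.991 to 0.992, above the replicates of either group (0.981 and 0.985), and JBlyp/lyp minus JB gave 5 calls with the replicate block, 3 with trend and robust prior, 0 with the Gapdh covariate and 0 to 4 without 1 array. F344lyp minus F344 gave 745 with the replicate block, 265 with dim probe sets left out, 123 with the Gapdh covariate and 58 to 241 without 1 array. The difference of both comparisons gave 3663 to 6479 without 1 array. No named gene reversed in any alternative run, but the Gapdh covariate ended 19 named calls (Ins1, Ins2, Reg1a, Cd3g, Cd3e, Bank1, C1qc, Mcpt1, Cdh17, Hbb, Ahsp, Hsp90ab1, Atp5f1d, Ndufs8, RT1-T24-4, RT1-Db1, RT1-DMb, Mcm3 and Rarres2) at differences of 0.66 to 1.43 times those without it (adjusted p 0.0534 to 0.278), and the 4 arrays alone ended 9 (Ins1, Ins2, Gsta3, Ndufs8, Cdh17, C1qc, Mcpt1, Ahsp and RT1-DMb). In the simulation, with 200 changed probe sets, 4% of differences of 0.5 were recovered. Since 9949 probe sets were called here, that share need not hold for this comparison. How many differences of that size were missed here was not tested.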
